A study of Mus musculus with 6 samples.

Results

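The genes of glycolysis and glycogen metabolism were examined in extensor digitorum longus (EDL), a fast-twitch muscle of the hindlimb. The group was defined by a list of 46 gene symbols, taken for the enzymes of the pathway and their regulators. Earlier results of these data were known when the list was chosen. All 46 symbols were found among the 24411 genes of the count table. Of these, 45 passed the filter on low counts. The exception was *Aldoc*, the aldolase of brain, with 4, 5 and 0 counts in the mAktDKO mice and 6, 5 and 6 in the control mice. RNA was sequenced from 3 mAktDKO mice (Mlc1f-Cre:Akt1/2-floxed) and 3 control mice (Akt1/2-floxed), all C57BL/6J and 50 weeks old, and both groups carried the floxed *Akt1* and *Akt2* alleles. Cre was driven by the *Mlc1f* promoter, a promoter of fast fibres with low activity in satellite cells, the stem cells of muscle, and the deletion in other cells of the muscle was not measured here. The libraries were depleted of ribosomal RNA, and the values are gene counts estimated by RSEM, which divides a read that matches several genes among them. The mAktDKO mice are numbered 1 to 3 and the control mice 2 to 4, as in the table.

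Glycolysis turns glucose into pyruvate and makes ATP without oxygen, and fast-twitch fibres hold large amounts of its enzymes for short, strong contractions. Glycogen is the store of glucose in the fibre. Glycogen synthase and branching enzyme build it, and phosphorylase, switched on by phosphorylase kinase, releases it. Insulin acts on this system through Akt, which promotes glucose uptake and inhibits glycogen synthase kinase 3, the kinase that holds glycogen synthase inactive. The comparison of mAktDKO with control muscle addresses whether the transcripts of this machinery differed when Akt was deleted in the fibres.

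The total counts were between 13738795 and 15445523 per mouse. A gene at 3 counts lay at 0.194 to 0.218 CPM (counts scaled by library size), a floor that covers counting error only. This floor was taken from the total counts alone, without the TMM scaling of the CPM values below. *Akt2* had 51.3, 49.1 and 52.7 CPM in mAktDKO muscle and 172, 133 and 143 CPM in control muscle, a log2 fold change of -1.55 (edgeR adjusted p = 0.000923), and *Akt1* differed by -0.25 (edgeR adjusted p = 0.115). Control mouse 2 stood apart from the rest. Across genes, its log2 CPM correlated with the other mice at 0.961 to 0.977, and the other pairs of mice were between 0.978 and 0.989. Summed markers of fibroblasts in it were 7284 CPM, against 15736 and 18401 CPM in the other control mice. Every member was therefore compared with and without this mouse.

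Transcripts of the pathway were lower in mAktDKO muscle in 32 of the 45 tested members and higher in 13. Their median log2 fold change was -0.22, and over all 12892 tested genes 6130 were lower and the median was 0.02. Without control mouse 2, 33 members were lower and the median was -0.17. The summed level of the members was 31099, 29502 and 33708 CPM in mAktDKO muscle and 42189, 37657 and 35795 CPM in control mice 2, 3 and 4, so that the groups did not overlap with or without control mouse 2. Values are relative to TMM scaling. With library totals the median of all genes was 0.16, 26 members were lower (29.6% of all genes were), their median was -0.07, or -0.23 relative to that of all genes, and the members with an unadjusted p under 0.05 were 11 lower and 6 higher (background 5.02% and 23%). In bulk muscle, fewer fibres of a type and less RNA per fibre cannot be told apart.

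No member passed edgeR's quasi-likelihood test at an adjusted p of 0.01 or 0.05, where 0.0233% and 1.18% of all tested genes did. The smallest adjusted p was 0.0585, for *Slc16a3*. An unadjusted p under 0.05 was reached by 18 members with lower levels and 4 with higher levels, where 13.1% and 11.4% of all genes did so. The values of the groups did not overlap in 18 members that were lower and in 2 that were higher (background 16.6% and 14.6%). Without control mouse 2, 14 members were lower and 2 were higher at an unadjusted p under 0.05 (background 10.2% and 9.05%). Without mAktDKO mouse 1 they were 12 and 1 (1332 and 1109 of all 13004 genes). Without mAktDKO mouse 2 they were also 12 and 1 (1053 and 818 of 13034), and without control mouse 3 16 and 1 (1553 and 1485 of 13134). They were 20 and 3 without mAktDKO mouse 3 (1598 and 1196 of 13151) and 19 and 3 without control mouse 4 (1748 and 1638 of 13127).

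The DESeq2 Wald test on the same counts called 7 members at an adjusted p of 0.01 and 10 at 0.05, all of them lower in mAktDKO muscle (background 3.09% and 7.33% of the genes with an adjusted p, in either direction). The 7 members were *Pkm*, *Phka1*, *Ldha*, *Slc16a3*, *Gys1*, *Hk2* and *Pgam2*, and *Aldoa*, *Pfkm* and *Gbe1* were added at 0.05. Without control mouse 2, DESeq2 called 6 members at 0.01, namely *Pkm*, *Phka1*, *Pgam2*, *Gys1*, *Slc16a3* and *Ldha* (background 2.95%). It called 0 members at 0.01 without mAktDKO mouse 1 (background 1.98%) or without mAktDKO mouse 2 (1.01%), fits in which calls over all genes also fell from 328 to 175 and 59. It called 4, 4 and 7 members without mAktDKO mouse 3, control mouse 3 and control mouse 4 (background 2.02%, 2.6% and 3.74%).

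**Figure D1:**
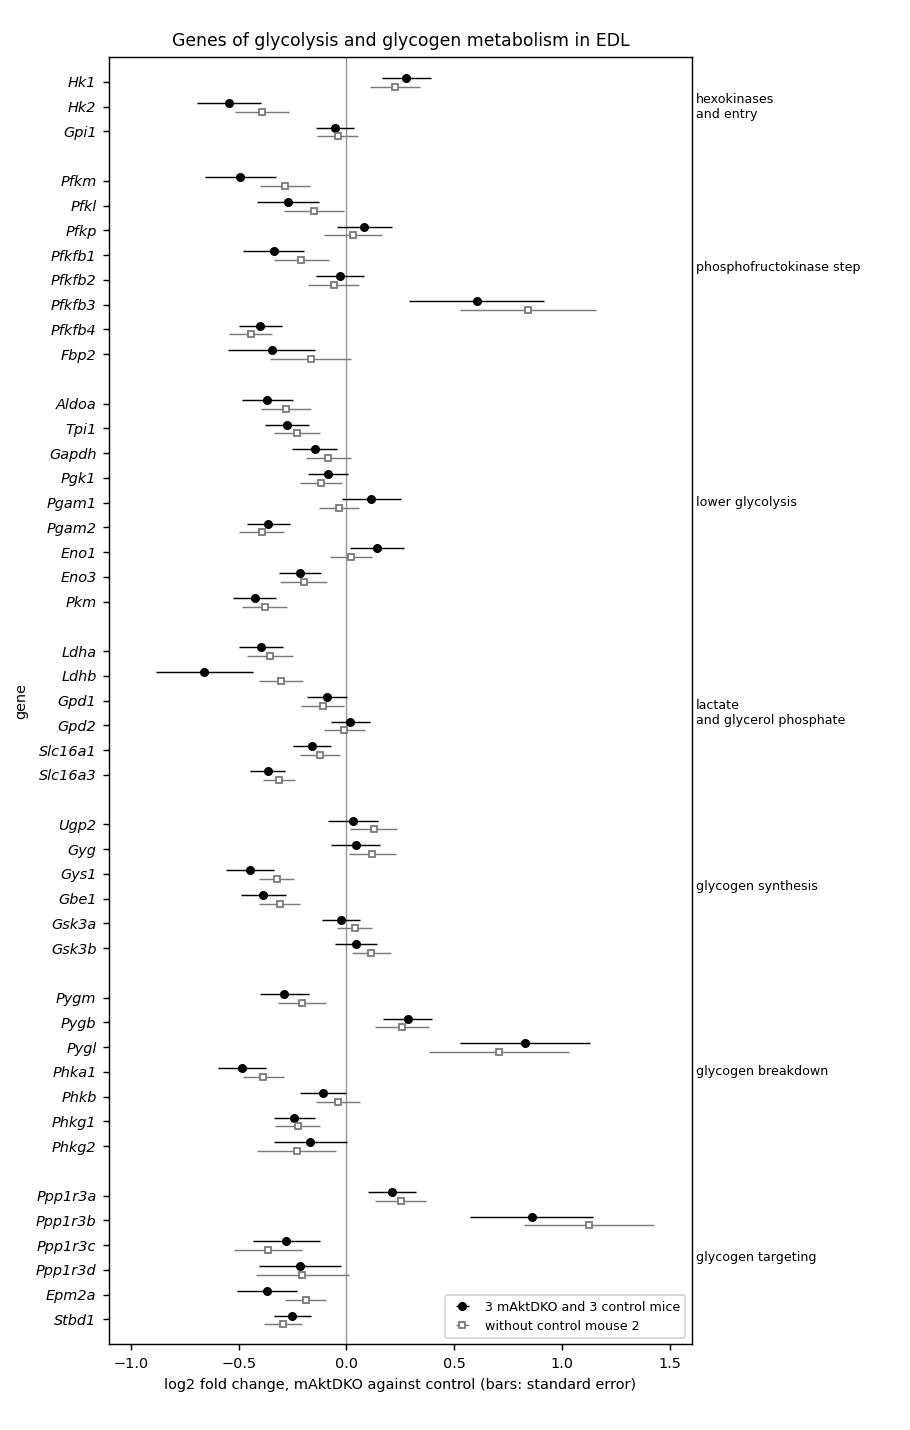
Log2 fold change of each tested member in mAktDKO against control muscle by edgeR (x axis, bars: standard error), grouped by role, for all 6 mice (black circles) and without control mouse 2 (open squares). Most members lay left of 0, and *Ppp1r3b*, *Pygl* and *Pfkfb3* lay farthest to the right.

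Markers of fibres and of other cells also differed between the groups. All 12 fast fibre markers were lower (median -0.28), or 10 of them with library totals (median -0.14). Their sums were 116458 to 130301 CPM in mAktDKO against 136542 to 145630 CPM in control muscle. The groups did not overlap in 7 of the 12, where 16.6% of all genes were lower without overlap. *Myh4*, the most abundant of them, was at -0.02 (edgeR adjusted p = 0.944) with overlapping groups. Of 10 slow fibre markers, 8 were higher (median 0.40, sums of 815 to 1510 against 733 to 1037 CPM). Higher levels were also found for 5 of 5 fibroblast markers (18280 to 21736 against 7284 to 18401 CPM), 5 of 5 macrophage markers (78.9 to 102 against 49.8 to 85.5 CPM), 5 of 5 adipocyte markers (23.1 to 74.0 against 15.1 to 37.0 CPM) and 5 of 5 Schwann cell markers (380 to 491 against 311 to 395 CPM). The same held for 4 of 5 endothelial markers (404 to 470 against 334 to 434 CPM), 3 of 5 smooth muscle and mural markers (534 to 614 against 467 to 546 CPM), 5 of 5 red blood cell markers (150 to 320 against 114 to 168 CPM) and the 3 tested of 5 epidermal and tendon markers (782 to 1192 against 573 to 740 CPM). *Hbb-bs* was the only gene of these lists that edgeR called at an adjusted p of 0.05, and it had 0 counts in the 3 control mice. The DESeq2 Wald test at an adjusted p of 0.01 called the fast fibre markers *Myh1*, *Tnni2*, *Tnnc2*, *Myl1* and *Pvalb*, all lower. It also called *Dcn*, *Tnmd*, *Fmod* and *Hbb-bs*, all higher (background 3.09% of the genes with an adjusted p, in either direction). Without control mouse 2, 4 of 5 fibroblast markers were higher and their median was 0.22 in place of 0.57, the median of the macrophage markers was 0.31 in place of 0.51, that of the endothelial markers 0.18 in place of 0.29, and 2 of 5 smooth muscle and mural markers were higher. The Schwann cell and red blood cell markers were then higher in 4 of 5 each, and the slow fibre markers in 9 of 10. With library totals and all mice, 5 of 5 smooth muscle and mural markers (median 0.21 in place of 0.08) were higher, where 9082 of all 12892 genes were. So were 5 of 5 endothelial markers (0.43 in place of 0.29) and 9 of 10 slow fibre markers (0.54 in place of 0.40). The part of these cell types in the levels of the members was not tested.

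At the entry of glucose, *Hk2* passed DESeq2 but not edgeR, and *Hk1* passed neither. *Hk2*, the main hexokinase of insulin-sensitive muscle (chr6:82725025-82774454, mm10), had 374, 325 and 438 CPM in mAktDKO muscle and 662, 473 and 520 CPM in control muscle. The groups did not overlap, and the log2 fold change was -0.54 (SE 0.15, edgeR adjusted p = 0.0838, DESeq2 adjusted p = 0.00601). Without control mouse 2, which had the highest level, it was -0.39 (DESeq2 adjusted p = 0.0338). *Hk1*, the isoform of most tissues (chr10:62268855-62379908), had 23.7, 19.9 and 19.95 CPM against 16.2, 19.3 and 16.9 CPM, a log2 fold change of 0.28 (SE 0.11, edgeR adjusted p = 0.176), and the groups did not overlap. *Gpi1*, which converts glucose 6-phosphate to fructose 6-phosphate, was at -0.05 with overlapping groups (-0.13 to -0.02 with 1 mouse left out).

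Phosphofructokinase makes the committed step of glycolysis, and its muscle subunit is encoded by *Pfkm* (chr15:98092589-98132451). *Pfkm* had 2200, 2067 and 2581 CPM in mAktDKO muscle and 4071, 2799 and 2762 CPM in control muscle. The means were 2283 ± 267 and 3211 ± 745 CPM (SD, n = 3). The groups did not overlap, and control mouse 2 was far above every other mouse. The log2 fold change was -0.49 (SE 0.16, edgeR adjusted p = 0.125, DESeq2 adjusted p = 0.0193) with this mouse and -0.29 (SE 0.12, edgeR adjusted p = 0.224, DESeq2 adjusted p = 0.0810) without it. The liver-type subunit *Pfkl* was at -0.27 (-0.15 without control mouse 2) and the platelet-type subunit *Pfkp* at 0.08 (0.03), both with overlapping groups.

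The 4 enzymes that make and break fructose 2,6-bisphosphate, an activator of phosphofructokinase, did not pass edgeR. *Pfkfb4* had 21.9, 19.5 and 22.6 CPM in mAktDKO muscle and 26.4, 30.5 and 27.4 CPM in control muscle. All mAktDKO mice lay below all control mice, and the log2 fold change was -0.40 (SE 0.10, edgeR adjusted p = 0.0710), or -0.44 without control mouse 2. *Pfkfb1* was at -0.34 (-0.21 without control mouse 2) and *Pfkfb2* at -0.03, both with overlapping groups. *Pfkfb3* had 194, 173 and 127 CPM against 141, 53.3 and 131 CPM, with control mouse 3 far below the others, and its log2 fold change was 0.60 (SE 0.31, edgeR adjusted p = 0.264), or 0.28 without that mouse and 0.84 without control mouse 2. *Fbp2*, the muscle fructose bisphosphatase that opposes phosphofructokinase, was at -0.35 (SE 0.20), or -0.17 without control mouse 2, with overlapping groups.

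In the lower part of glycolysis, 7 of the 9 tested members were lower (6 with library totals, where *Pgk1* was above 0), and the exceptions were *Pgam1* (0.12) and *Eno1* (0.14), the forms of mutase and enolase that are found in most tissues. Without control mouse 2 these were at -0.03 and 0.02. *Pkm*, pyruvate kinase of muscle (chr9:59656368-59679375), had 2206, 2072 and 2336 CPM in mAktDKO muscle and 3148, 3002 and 2728 CPM in control muscle. The groups were well separated, and the log2 fold change was -0.42 (SE 0.10, edgeR adjusted p = 0.0623, DESeq2 adjusted p = 0.000957), or -0.38 without control mouse 2 (DESeq2 adjusted p = 0.00134). *Pgam2*, the phosphoglycerate mutase of muscle (chr11:5801640-5803733), had 911, 789 and 836 CPM against 1042, 1192 and 1027 CPM. Here control mouse 2 was not the extreme one, and the log2 fold change of -0.36 (SE 0.10, edgeR adjusted p = 0.0838, DESeq2 adjusted p = 0.00987) was -0.39 without it (DESeq2 adjusted p = 0.00341).

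*Aldoa*, the aldolase of muscle and the most abundant member (chr7:126795234-126800751), had 6901, 6642 and 7737 CPM in mAktDKO muscle and 10270, 8500 and 8696 CPM in control muscle. The groups did not overlap (log2 fold change -0.37, SE 0.12, edgeR adjusted p = 0.114, DESeq2 adjusted p = 0.0162), and without control mouse 2 the difference was -0.28 (DESeq2 adjusted p = 0.0388). *Eno3*, the enolase of muscle, had 2988, 2927 and 3136 CPM against 3594, 3728 and 3193 CPM, a log2 fold change of -0.22 (SE 0.10, edgeR adjusted p = 0.213). Triose phosphate isomerase (*Tpi1*) was at -0.28 without overlap between the groups. *Gapdh* (-0.15, or -0.09 without control mouse 2) and *Pgk1* (-0.09, or -0.02 without control mouse 3), which catalyse the steps between triose phosphate and the mutase, had overlapping groups. The counts of *Gapdh*, *Eno1* and *Ldha* were not whole in any of the 6 mice and those of *Aldoa* in 5, since RSEM divided reads between these genes and similar sequences, so their levels rest in part on that division.

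Lactate dehydrogenase and the lactate transporters handle the end product. *Slc16a3*, which encodes the exporter MCT4 of fast fibres (chr11:120948480-120960868), had 191, 200 and 201 CPM in mAktDKO muscle and 272, 246 and 243 CPM in control muscle. The mice of each group lay close together and the groups did not overlap, with a log2 fold change of -0.37 (SE 0.08, edgeR adjusted p = 0.0585, DESeq2 adjusted p = 0.00428), or -0.31 without control mouse 2 (DESeq2 adjusted p = 0.00486). *Slc16a1*, which encodes MCT1, was at -0.16 with overlapping groups (-0.22 to -0.10 with 1 mouse left out).

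*Ldha*, the lactate dehydrogenase subunit that prevails in fast muscle (chr7:46841475-46855627), had 1448, 1307 and 1414 CPM in mAktDKO muscle and 1943, 1923 and 1629 CPM in control muscle. The groups did not overlap, and the log2 fold change was -0.40 (SE 0.10, edgeR adjusted p = 0.0745, DESeq2 adjusted p = 0.00413), or -0.36 without control mouse 2 (DESeq2 adjusted p = 0.00880). *Ldhb*, the subunit that prevails in heart and oxidative fibres, had 115, 99.3 and 121 CPM against 253, 146 and 130 CPM. It had the lowest log2 fold change of the members, -0.66 (SE 0.22, edgeR adjusted p = 0.129), but control mouse 2 set its size, and without that mouse it was -0.30 (edgeR adjusted p = 0.152). The glycerol 3-phosphate dehydrogenases *Gpd1* (-0.09, or -0.01 without control mouse 3) and *Gpd2* (0.02) had overlapping groups.

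**Figure D2:**
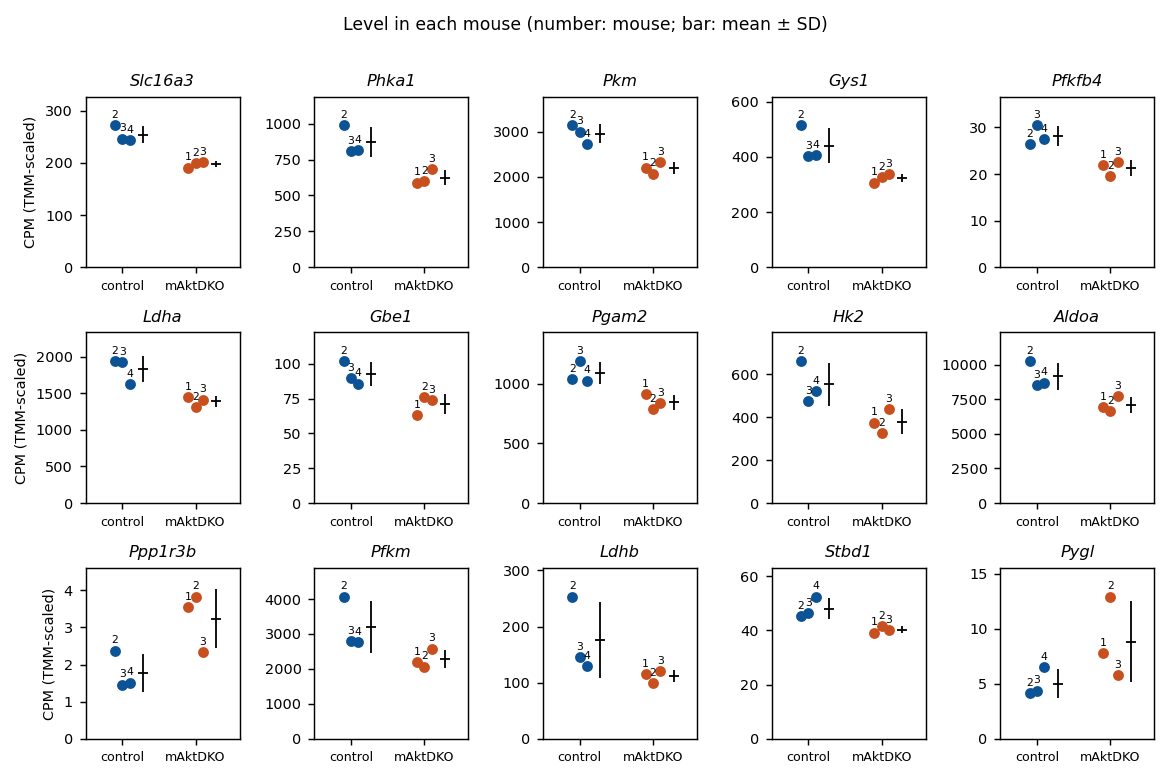
CPM scaled by TMM (y axis, from 0) in each of the 3 control (blue) and 3 mAktDKO (orange) mice for the 15 members with the smallest unadjusted p; digits give the mouse and bars the mean ± SD. In 13 of the panels the mAktDKO mice lay below the control mice, while *Ppp1r3b* and *Pygl* were higher with overlapping groups.

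Promoter windows of 3 of these members are shown because they hold motifs that are known from glycolytic or muscle genes. The windows run from 250 bases before to 50 after a start site of RefSeq (GRCm38.p6, the mm10 assembly), and 44 of the 46 members matched, with 63 windows. The others were *Gpd1* and *Ppp1r3b*. The letters ACGTG, the core of the element bound by hypoxia-inducible factors and part of the E-box of carbohydrate response and Myc binding, were searched on both strands. They are in capitals in the *Slc16a3* window (chr11:120948817-120949116, plus strand) and in window 1 of *Ldha* (chr7:46845554-46845853, plus strand). Window 2 of *Ldha* held 0 matches to ACGTG and is not shown. In the *Pgam2* window (chr11:5803747-5804046, minus strand), capitals mark CANNTG, the E-box bound by myogenic factors, and a MEF2 motif.
Slc16a3: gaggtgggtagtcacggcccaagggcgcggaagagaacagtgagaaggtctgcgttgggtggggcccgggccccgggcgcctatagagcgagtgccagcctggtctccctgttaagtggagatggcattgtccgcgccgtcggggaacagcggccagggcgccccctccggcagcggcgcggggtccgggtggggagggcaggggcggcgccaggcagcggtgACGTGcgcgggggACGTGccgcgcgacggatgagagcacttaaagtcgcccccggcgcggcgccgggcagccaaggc
Ldha: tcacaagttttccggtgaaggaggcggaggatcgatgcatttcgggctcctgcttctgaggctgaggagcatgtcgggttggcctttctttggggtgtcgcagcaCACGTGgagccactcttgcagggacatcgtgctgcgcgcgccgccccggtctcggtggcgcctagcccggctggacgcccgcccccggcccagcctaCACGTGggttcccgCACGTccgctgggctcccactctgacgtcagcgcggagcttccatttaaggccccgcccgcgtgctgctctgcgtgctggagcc
Pgam2: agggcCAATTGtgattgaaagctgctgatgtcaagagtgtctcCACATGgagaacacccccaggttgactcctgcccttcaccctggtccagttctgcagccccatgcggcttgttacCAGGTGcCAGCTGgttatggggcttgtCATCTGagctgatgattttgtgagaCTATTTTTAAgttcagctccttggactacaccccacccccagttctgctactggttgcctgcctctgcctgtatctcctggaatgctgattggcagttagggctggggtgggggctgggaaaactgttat
ACGTG was found in 44.4% of the member windows and in 19.6% of all 32851 windows, and overlaps CANNTG where the letters read CACGTG. The median GC content was 60.3% in the member windows and 52.7% in all, and the GC-rich letters CCGCCC were in 55.6% and 35.7%. CANNTG was in 71.4% and 72.3%, the MEF2 motif in 4.76% and 3.19%, and GTAAACA, bound by FoxO and other forkhead factors, in 1.59% and 3.65%. Matches were taken as letters only, and binding was not measured.

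Among the genes that build glycogen, synthase and branching enzyme were lower, and the other 4 members were near 0. *Gys1*, muscle glycogen synthase (chr7:45434844-45456619), had 307, 327 and 337 CPM in mAktDKO muscle and 515, 403 and 406 CPM in control muscle. The groups did not overlap. The log2 fold change was -0.45 (SE 0.11, edgeR adjusted p = 0.0693, DESeq2 adjusted p = 0.00456) and -0.32 without control mouse 2 (DESeq2 adjusted p = 0.00391). *Gbe1*, the branching enzyme (chr16:70313949-70569716), had 62.9, 76.0 and 73.8 CPM against 102, 89.8 and 85.8 CPM, without overlap (log2 fold change -0.38, SE 0.10, edgeR adjusted p = 0.0799, DESeq2 adjusted p = 0.0237), and was at -0.31 without control mouse 2 (DESeq2 adjusted p = 0.0855). UDP-glucose pyrophosphorylase (*Ugp2*, 0.03), the primer glycogenin (*Gyg*, 0.04) and the kinases *Gsk3a* (-0.03) and *Gsk3b* (0.04) had overlapping groups and standard errors of 0.09 to 0.12.

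Among the genes of glycogen breakdown, 5 of the 7 members were lower, and the exceptions were *Pygb* and *Pygl*, none of the 7 passing edgeR. *Phka1*, the muscle alpha subunit of phosphorylase kinase (chrX:102513975-102644246), had 589, 600 and 683 CPM in mAktDKO muscle and 990, 811 and 816 CPM in control muscle. The groups were well separated, and the log2 fold change was -0.48 (SE 0.11, edgeR adjusted p = 0.0598, DESeq2 adjusted p = 0.00119), or -0.38 without control mouse 2 (DESeq2 adjusted p = 0.00188). The muscle catalytic subunit *Phkg1* was at -0.24 without overlap, while the beta subunit *Phkb* (-0.11, or -0.04 without control mouse 2) and the other catalytic subunit *Phkg2* (-0.17, or -0.06 without mAktDKO mouse 1) had overlapping groups.

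*Pygm*, muscle phosphorylase (chr19:6384399-6398459), had 4475, 4094 and 4834 CPM in mAktDKO muscle and 6086, 5222 and 5065 CPM in control muscle, without overlap (log2 fold change -0.29, SE 0.11, edgeR adjusted p = 0.168). *Pygl*, liver phosphorylase, had 7.80, 12.9 and 5.76 CPM against 4.12, 4.38 and 6.50 CPM, and its log2 fold change was 0.83 (SE 0.30, edgeR adjusted p = 0.144), or 0.44 without mAktDKO mouse 2. Its groups overlapped. That mouse also had the highest sums of adipocyte markers, 74.0 CPM, and of slow fibre markers, 1510 CPM. A link of these sums with *Pygl* was not tested. *Pygb*, brain phosphorylase, had 21.1, 19.0 and 16.6 CPM against 14.96, 14.96 and 16.7 CPM, a log2 fold change of 0.28 (SE 0.12, edgeR adjusted p = 0.176), with overlapping groups.

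The glycogen-targeting subunits bring protein phosphatase 1 to the glycogen particle, where it activates glycogen synthase. *Ppp1r3b* had 3.55, 3.83 and 2.33 CPM in mAktDKO muscle and 2.38, 1.46 and 1.51 CPM in control muscle. It was the member with the highest log2 fold change, 0.86 (SE 0.29, edgeR adjusted p = 0.124), or 1.12 without control mouse 2, with groups that overlapped only between mAktDKO mouse 3 and control mouse 2. *Ppp1r3a*, the main subunit of muscle, had 790, 805 and 1001 CPM against 787, 748 and 705 CPM, a log2 fold change of 0.21 (SE 0.11, edgeR adjusted p = 0.265), and its groups were separated by a small gap. Without mAktDKO mouse 3 the difference was 0.08. *Ppp1r3c* (-0.28, or -0.14 without mAktDKO mouse 2 and -0.47 without mAktDKO mouse 3) and *Ppp1r3d* (-0.22, or -0.08 without mAktDKO mouse 3) had overlapping groups.

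*Stbd1*, a protein that tethers glycogen to membranes, had 39.2, 41.8 and 40.1 CPM in mAktDKO muscle and 45.2, 46.3 and 52.5 CPM in control muscle. The groups did not overlap, and the log2 fold change was -0.25 (SE 0.09, edgeR adjusted p = 0.132). *Epm2a*, which encodes the glycogen phosphatase laforin, was at -0.37 (SE 0.14) without overlap, and at -0.19 without control mouse 2.

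The muscle isoform of an enzyme was compared with its partner in the same mouse, since a ratio within a mouse does not depend on the scaling between mice. For 13 pairs of members the difference of the log2 ratio between the groups was tested with a two-sided exact permutation test, which cannot go below 0.1 with 3 mice against 3. *Hk2*/*Hk1* differed by -0.81, with log2 ratios of 3.97, 4.02 and 4.45 in the mAktDKO mice and 5.34, 4.61 and 4.93 in the control mice. *Pygm*/*Pygb* differed by -0.56, *Pgam2*/*Pgam1* by -0.49 and *Ppp1r3a*/*Ppp1r3c* by 0.50. In these 4 pairs the groups did not overlap, so each reached the smallest exact p of 0.1, and the adjusted p over the 13 pairs was 0.289.

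The groups overlapped in the remaining pairs. *Pygm*/*Pygl* differed by -1.04, with log2 ratios of 9.14, 8.29 and 9.68 in the mAktDKO mice and 10.5, 10.2 and 9.58 in the control mice. *Pfkm*/*Pfkp* differed by -0.55 and *Eno3*/*Eno1* by -0.36. In these 7 ratios control mouse 2 was the highest of the control mice. Without it, the differences were -0.62 (*Hk2*/*Hk1*), -0.46 (*Pygm*/*Pygb*), -0.36 (*Pgam2*/*Pgam1*), -0.84 (*Pygm*/*Pygl*), -0.32 (*Pfkm*/*Pfkp*), -0.21 (*Eno3*/*Eno1*) and 0.63 (*Ppp1r3a*/*Ppp1r3c*), all of the same sign. The ratio of synthase to phosphorylase, *Gys1*/*Pygm*, differed by -0.15. *Ldha*/*Ldhb* differed by 0.20 with control mouse 2 and by -0.05 without it. The differences of *Pfkm*/*Pfkl* (-0.22), *Slc16a3*/*Slc16a1* (-0.20), *Gpd1*/*Gpd2* (-0.10) and *Phkg1*/*Phkg2* (-0.08) had exact permutation p-values of 0.2 to 0.9.

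**Figure D3:**
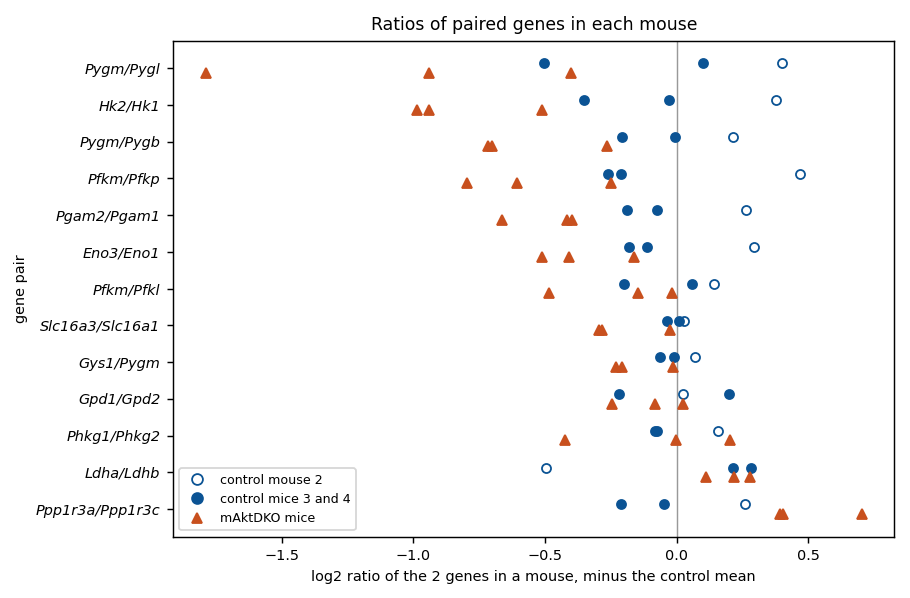
Log2 ratio of the named gene pair in each mouse minus the mean of the control mice (x axis), for control mice (blue circles, open for mouse 2) and mAktDKO mice (orange triangles). The mAktDKO mice lay apart from the control mice in *Hk2*/*Hk1*, *Pygm*/*Pygb*, *Pgam2*/*Pgam1* and *Ppp1r3a*/*Ppp1r3c*.

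Levels were compared between genes as counts per kb of exon length, scaled to the same total in each mouse but not by TMM. In control muscle *Aldoa* was at 14009, *Eno3* at 8981, *Pygm* at 7553, *Pgam2* at 5769 and *Pfkm* at 4273, while *Pfkp* was at 3.49 and *Ppp1r3b* at 1.27. All 11 members at 1000 or more were lower in mAktDKO muscle, with a median log2 fold change of -0.29 (*Pgk1* was above 0 when library totals were used), and 71 of all 90 genes at that level were lower (78.9%, median -0.22). Among the 13 members between 100 and 1000, 9 were lower (median -0.11), as were 66.0% of all genes at that level (median -0.10). Of the 15 members between 10 and 100 and the 6 below 10, 9 and 3 were lower, with 52.4% and 36.1% of all genes. The rank correlation of the log2 fold change with the level was -0.41 over the 45 members and -0.26 over 12436 genes, all from the same 6 libraries. The limits between the levels were chosen with the values in view.

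**Figure D4:**
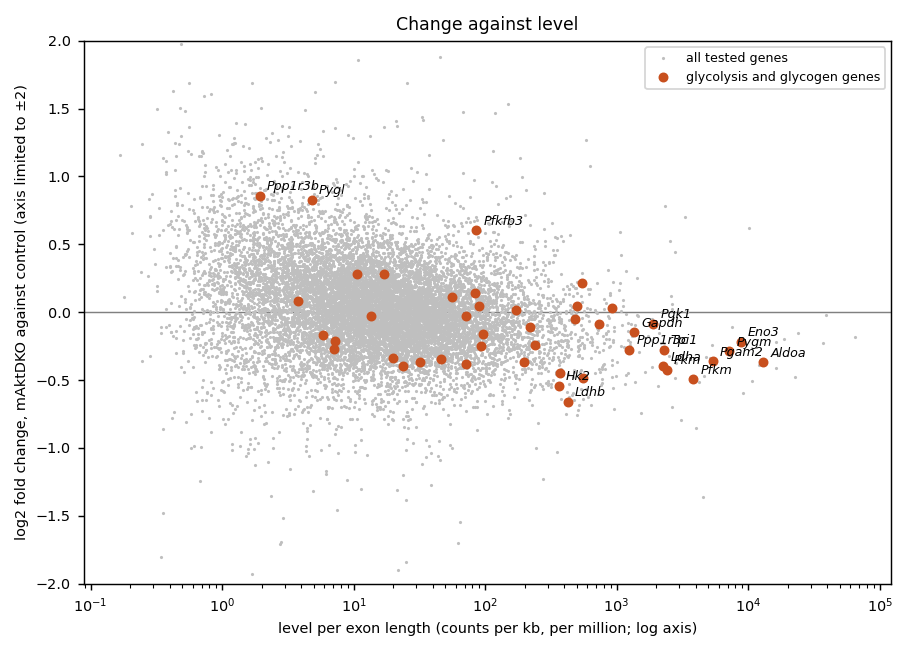
Log2 fold change in mAktDKO against control muscle (y axis, limited to ±2, which leaves out 7 genes) against the level per exon length (x axis, log scale) for all tested genes (grey) and the members (orange). The 11 members at 1000 or more lay below 0, as did 71 of the 90 genes at that level.

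Members were not high or low evenly across mice. Control mouse 2 had the highest value of the 6 mice in 21 of the 45 members (46.7%) and in 29.1% of all genes, and mAktDKO mouse 2 the lowest in 16 members (35.6%) and in 19.6% of all genes. The mean log2 deviation of the members from the control mean was -0.13, -0.14 and -0.11 in the mAktDKO mice and 0.09, -0.04 and -0.04 in control mice 2, 3 and 4. Leaving out control mouse 2 kept the sign of the log2 fold change in 42 of 45 members and made its size smaller in 30.

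Further genes of the pathways were taken from lists. Of 13 tested genes among 21 other glycolysis genes, 9 were lower (6 with library totals), where 47.5% of all genes were (29.6% with library totals). *Pgp*, a phosphatase of glycerol phosphate and glycolytic side products, had 20.6, 19.6 and 20.8 CPM against 35.6, 31.1 and 30.2 CPM (-0.67, edgeR adjusted p = 0.0260). *Ldhd*, the dehydrogenase of D-lactate, was at -0.41 (edgeR adjusted p = 0.0539).

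Of 14 tested genes among 16 other glycogen genes, 11 were lower (7 with library totals) and 0 were called by edgeR at 0.05. An unadjusted edgeR p under 0.05 was reached by 2 of them, and by 3164 of all 12892 tested genes. The smallest p of that list was that of *Pgm2* at -0.45 (edgeR adjusted p = 0.0616, DESeq2 adjusted p = 0.00201). Among 6 tested glucose transporters 3 were lower and 0 had an unadjusted edgeR p under 0.05. When control mouse 2 was left out, 1 was lower and 1, *Slc2a12*, had an unadjusted edgeR p under 0.05 (2531 of all 13138 genes). The log2 fold change of *Slc2a12* was then 0.43 (edgeR adjusted p = 0.0905) in place of 0.27. Of 14 transcription factors of glycolytic genes, 8 were higher, as were 6762 of all 12892 genes. With library totals 10 of them were higher, and 9082 of all genes. *Myc* had 9.19, 8.45 and 8.71 CPM against 4.12, 5.33 and 4.99 CPM (0.87, edgeR adjusted p = 0.0396), *Hif1a* was at 0.41 (edgeR adjusted p = 0.125), or 0.25 without control mouse 2, and *Mlxip*, a sensor of glucose metabolites, at -0.35 (edgeR adjusted p = 0.0842).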

How the data were processed

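RNA of EDL from 3 mAktDKO and 3 control mice was analysed. The authors prepared rRNA-depleted directional libraries, mapped paired-end reads to mm10 with STAR (2.6.1b in the submitters' processing notes, while the methods name another patch version) and quantified genes with RSEM 1.3.1. Deposited were its expected counts per gene, which carry no scaling between mice. Whether the counting used strand is not given in the sources used here.

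From the expected counts, rounded to whole numbers, low genes were removed with filterByExpr (minimum count 10), TMM scaling was applied, and the groups were compared in edgeR 4.0.16 (quasi-likelihood test, Benjamini-Hochberg adjustment over all tested genes, thresholds of 0.01 and 0.05) in R 4.3.3, and DESeq2 1.42.0 was the alternative test. These steps were tested on simulated data with planted changes larger than those of most members. That test does not show how often changes of the members' sizes would be called. The standard error is the log2 fold change divided by the square root of F. Log2 CPM values used a prior count of 2. The p-values measure the spread between the mice sampled. Exon lengths and coordinates came from GENCODE M21 and promoter windows from RefSeq.

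Other settings were library totals, upper-quartile scaling, size factors of DESeq2, other filters, a prior count of 0.5 and leaving out each mouse. Values in every mouse are given for the 15 members with the smallest unadjusted p and for some of the members of the gene pairs. Of each further list at most 3 genes are named, apart from *Myh4* and the markers called by DESeq2. *Hbb-bs*, *Pfkfb3*, *Myh4* and the markers called by DESeq2 were named or given in full after their values were seen. The members, lists and tests were chosen with earlier results of these data known, and DESeq2 without each mouse was added after seeing the data. The result of 1 gene named by the rule for the further lists is not reported here.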

Additional observations from a re-analysis of the deposited data

How the results depend on the processing

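With 3 mice in a group, a gene had to differ by more than the spread between mice to be called, and the counts of calls moved with the test and the mice. edgeR called 3 genes at an adjusted p of 0.01, 152 at 0.05, 32 with no filter on low counts and 0 to 8 when 1 mouse was left out. It called 0 members at 0.01 in each of these fits. With no filter it called 1 member at 0.05, and 381 of all 17360 tested genes. DESeq2 called 328 genes and 7 members at 0.01. Without 1 mouse it called 175, 59 and 193 genes and 0, 0 and 4 members (without mAktDKO mouse 1, 2 or 3), and 232, 231 and 407 genes and 6, 4 and 7 members (without control mouse 2, 3 or 4). *Akt2* stayed negative but passed 0.01 in edgeR only with all mAktDKO mice. The cause was not tested.

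Scaling by library totals moved the median of all genes from 0.02 to 0.16 and that of the members from -0.22 to -0.071 (relative to all genes, -0.23 in both), left 26 members lower in place of 32, and turned *Gpi1* (0.083), *Pfkfb2* (0.11), *Pgk1* (0.051), *Gpd1* (0.046), *Gsk3a* (0.11) and *Phkb* (0.027). With an unadjusted p under 0.05, the share of lower members was then 64.7% in place of 81.8%, and of lower genes 17.9% in place of 53.5%. With 1 mouse left out, the median of the members was between -0.22 and -0.17 and the number lower between 32 and 35.

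With 1 mouse left out, the log2 fold changes of 8 members near 0 changed sign. They ran from -0.11 to 0.048 (*Pfkfb2*), -0.067 to 0.039 (*Gsk3a*), -0.025 to 0.13 (*Pfkp*), -0.071 to 0.066 (*Gpd2*), -0.079 to 0.13 (*Ugp2*), -0.074 to 0.12 (*Gyg*), -0.023 to 0.12 (*Gsk3b*) and -0.033 to 0.22 (*Pgam1*). The ratios *Ldha*/*Ldhb* (-0.047 to 0.35) and *Phkg1*/*Phkg2* (-0.21 to 0.10) did so too. No paired analysis was possible because the numbers of the floxed mice in the table (2 to 4) are not those of their labels (1 to 3). Depth limited *Aldoc*, which had 0 to 6 counts.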
